A study of Homo sapiens with 4 samples.

Results

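The genes described here encode 10 components of TGF-β and activin signalling: the ligands TGFB1, TGFB2, TGFB3 and INHBA, the receptors TGFBR1 and TGFBR2, the intracellular proteins SMAD3 and SMAD7, the activin antagonist FST and the TGF-β-induced matrix protein TGFBI. They were listed by name, with earlier results of these data known, by a rule that sets no threshold on their values, and every array probe whose accession mapped to one of these symbols was taken. Each gene had exactly 1 such probe, so 10 of the 58201 probes and 10 of the 25122 genes with a symbol are covered.

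RNA was measured on 4 one-colour arrays from PC3 and DU145 cells, both established androgen-insensitive human prostate cancer lines. PC3-shC and DU145-shC cells carried a luciferase shRNA as control, and PC3-shESS2 and DU145-shESS2 cells carried an shRNA against ESS2, a nuclear protein that acts with transcription factors and the spliceosome. The labels describe lentiviral transduction in both lines, whereas the study's methods describe plasmid transfection and puromycin selection for PC3; whether the cells were 1 clone is not given in the sources used here. The comparison asks how the pathway genes differed after ESS2 depletion. With 1 array per condition, no test, p-value or replicate check was possible within a line. The PC3 arrays shared 1 slide and scan and the DU145 arrays another, so slide and cell line cannot be told apart.

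TGF-β and activin ligands bind paired type I and type II serine/threonine kinase receptors. The activated type I receptor phosphorylates SMAD2 and SMAD3, which join SMAD4, enter the nucleus and regulate transcription at short DNA motifs, while SMAD7 is induced by the pathway and blocks the receptors. In prostate epithelium TGF-β is known to restrain growth, and in advanced prostate cancer it is known for roles in invasion and bone metastasis.

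The motif bound by SMAD3 and SMAD4 has the core CAGAC, read GTCTG on the opposite strand. It was searched on both strands in the 250 bases before each start in RefSeq promoter sequences (GRCh38.p14), where it is present in 38.0% of 35116 promoters. It was found for 5 of the 10 genes (SMAD3, SMAD7, TGFB2, TGFB3 and TGFBR1). Counted by start, as the share of 38.0% is, it was found in 10 of the 25 listed starts of all 10 genes. The windows of TGFB2 (chr1:218345086-218345335, plus strand) and TGFBI (chr5:136028738-136028987, plus strand) are shown because both genes had lower signals in shESS2 cells of both lines and have a single listed start. Capitals mark the motif.
TGFB2: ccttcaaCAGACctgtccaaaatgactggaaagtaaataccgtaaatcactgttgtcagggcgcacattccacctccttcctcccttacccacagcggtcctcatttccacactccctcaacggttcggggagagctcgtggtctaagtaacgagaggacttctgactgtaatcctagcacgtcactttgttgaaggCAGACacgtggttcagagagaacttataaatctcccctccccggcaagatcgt
TGFBI: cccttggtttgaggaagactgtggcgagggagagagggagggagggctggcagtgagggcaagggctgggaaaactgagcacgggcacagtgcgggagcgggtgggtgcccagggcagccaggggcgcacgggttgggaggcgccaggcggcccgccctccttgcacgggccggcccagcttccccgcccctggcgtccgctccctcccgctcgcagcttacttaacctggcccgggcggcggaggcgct
The TGFB2 window holds 2 matches and the TGFBI window 0. A match of 5 bases is a description of the sequence and shows no binding.

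Levels below are signals divided by the 75th percentile of all non-control spots on the same array, so that 1 stands for that percentile. Ratios are log2 of shESS2 over shC on this scale, and a probe was called past 2-fold when its ratio was above 1 or below -1. The targeted gene, ESS2, had levels of 0.506 in PC3-shC, 0.185 in PC3-shESS2, 0.404 in DU145-shC and 0.0794 in DU145-shESS2. It was 2.74-fold lower in PC3-shESS2 and 5.09-fold lower in DU145-shESS2 cells, as their labels say. The reference genes GAPDH and ACTB had ratios between -0.04 and 0.18 over 3 probes. Between 50.8 and 52.6% of spots were well above background on each array, and 0 non-control spots were saturated. CTNNA1, which PC3 cells lack, was well above background only on the DU145 arrays, and the epithelial genes KRT8, KRT18 and EPCAM were well above it on all 4.

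In PC3 cells, 3 of the 10 genes were past 2-fold, with FST higher and TGFBR1 and SMAD3 lower in shESS2 cells, where 7.67% of all 30132 probes compared were past 2-fold (4.14% higher and 3.53% lower). In DU145 cells, none of the 9 genes compared was past 2-fold (0 of 9), against 5.06% of 30517 probes (2.4% higher and 2.66% lower). The median ratio of the genes was -0.18 in PC3 and -0.24 in DU145, beside -0.03 over all probes in each line. The median size of the ratio without its sign was 0.41 in PC3 and 0.53 in DU145, beside 0.28 and 0.24 over all probes.

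**Figure D1:**
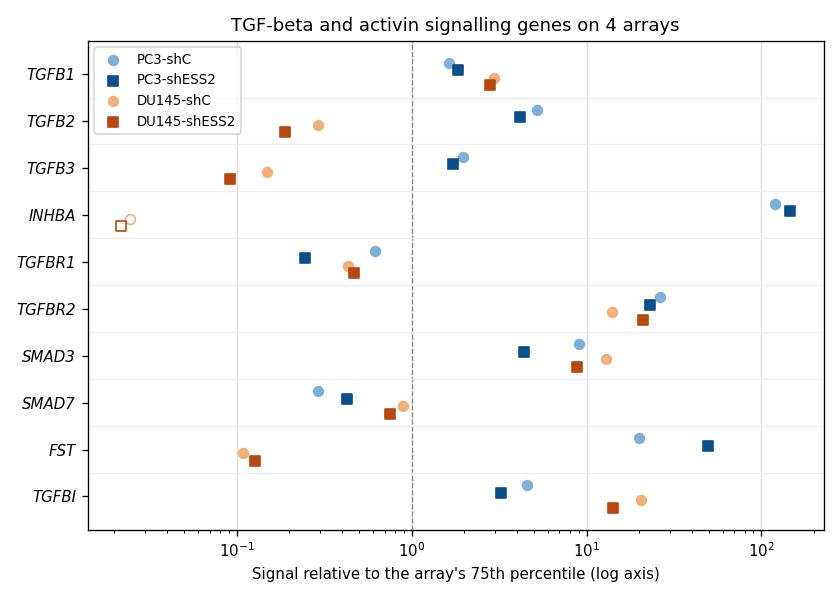
Level of each gene on the 4 arrays, as signal relative to the array's 75th percentile on a log axis, with 1 point per array and no error bar because each condition has 1 array; hollow points were not well above background. The points of TGFB2, TGFB3, INHBA and FST lie far to the right in PC3 and those of TGFBI to the right in DU145, whatever the shRNA.

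Among the ligands, TGFB1 encodes the most widely expressed TGF-β isoform. Its level was 1.63 in PC3-shC, 1.85 in PC3-shESS2, 2.97 in DU145-shC and 2.81 in DU145-shESS2. Both DU145 arrays were above both PC3 arrays. The log2 ratio was 0.18 in PC3 and -0.08 in DU145, with SDs between spots of 0.088 and 0.089. These are SDs of a ratio of single spots and come from probes of similar signal that are spotted 10 times on each array, and they cover neither hybridization nor cells. The ratio was therefore 2.09 such SDs above 0 in PC3 and 0.92 SDs below it in DU145, and neither is near 2-fold. The PC3 ratio ran from 0.08 with median scaling to 0.28 with the authors' scaled values.

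TGFB2 encodes the TGF-β2 isoform, which needs the co-receptor betaglycan for efficient receptor binding. Its level was 5.21 in PC3-shC, 4.14 in PC3-shESS2, 0.292 in DU145-shC and 0.189 in DU145-shESS2. The shESS2 array was the lower of the pair in each line, by 1.26-fold in PC3 and 1.55-fold in DU145 (log2 ratios -0.33 and -0.63). TGFB3, the isoform known from palate fusion and scarless repair, had levels of 1.95, 1.73, 0.149 and 0.0913 in the same order of arrays. It was 1.13-fold lower in PC3-shESS2 and 1.63-fold lower in DU145-shESS2 cells (log2 ratios -0.17 and -0.71). The PC3 value of TGFB3 lay 1.96 spot SDs from 0, and the DU145 value 6.85. With normexp the DU145 ratios were nearer to 0, at -0.29 for TGFB2 and -0.19 for TGFB3, and the PC3 ratio of TGFB2 was -0.17.

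INHBA encodes the βA subunit, 2 copies of which form activin A. Its probe was spotted 10 times on each array, which gives a spread of its own. The 10 spots ranged from 114 to 130.0 in PC3-shC and from 141 to 153 in PC3-shESS2, without overlap, and the ratio was 0.29. The SD of the log2 signal between spots was 0.055 and 0.040 on these arrays, which together give an SD of 0.068 for a ratio of single spots. On the DU145-shC array 1 spot was set aside as an outlier, and the 9 others ranged from 0.0110 to 0.0505, with 1 well above background. On the DU145-shESS2 array they ranged from 0.00991 to 0.0344, with 0 of 10 well above it. INHBA was thus not well above background in DU145 cells and no ratio is given there.

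Both receptors had ratios of opposite sign in the 2 lines. TGFBR1, the type I receptor kinase that phosphorylates SMAD2 and SMAD3, had levels of 0.616 in PC3-shC, 0.245 in PC3-shESS2, 0.430 in DU145-shC and 0.468 in DU145-shESS2. The PC3-shESS2 array was the lowest of the 4 and the PC3-shC array the highest. TGFBR1 was 2.51-fold lower in PC3-shESS2 cells (log2 ratio -1.33, spot SD 0.094), whereas the DU145 ratio was 0.12 (spot SD 0.10). The difference between the lines was -1.45 on the log2 scale and was not tested. With normexp background correction and quantile normalization the PC3 ratio was -0.85, which is under 2-fold.

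TGFBR2, the type II receptor that binds ligand first, had levels of 26.2 in PC3-shC, 23.0 in PC3-shESS2, 13.9 in DU145-shC and 21.1 in DU145-shESS2. The DU145-shC array was the lowest, and the shESS2 arrays of both lines were close to each other. The ratio was -0.19 in PC3 and 0.60 in DU145, where TGFBR2 was 1.52-fold higher in shESS2 cells. Both were under 2-fold, and the PC3 ratio was as near to 0 as -0.085 with quantile normalization.

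SMAD3, the receptor-regulated SMAD that binds DNA, had levels of 9.01 in PC3-shC, 4.38 in PC3-shESS2, 12.9 in DU145-shC and 8.85 in DU145-shESS2. The shESS2 array was the lower one in each line. It was 2.06-fold lower in PC3-shESS2 and 1.46-fold lower in DU145-shESS2 cells (log2 ratios -1.04 and -0.55, spot SDs 0.075 and 0.073). The PC3 value lay just past the threshold and was under 2-fold with quantile normalization, with normexp and with the authors' scaled values, the ratio nearest to 0 being -0.86 with normexp.

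SMAD7, the inhibitory SMAD that recruits ubiquitin ligases to the type I receptor, had levels of 0.292 in PC3-shC, 0.428 in PC3-shESS2, 0.896 in DU145-shC and 0.757 in DU145-shESS2. The ratio was 0.55 in PC3 and -0.24 in DU145, opposite in sign, and both were under 2-fold. With normexp they were 0.28 and -0.16. All 3 other arrays were above PC3-shC.

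FST encodes follistatin, a secreted protein that binds activin and keeps it from its receptors. Its level was 19.9 in PC3-shC, 49.3 in PC3-shESS2, 0.108 in DU145-shC and 0.127 in DU145-shESS2. Both PC3 arrays were far above both DU145 arrays, and the PC3-shESS2 array was the highest. FST was 2.48-fold higher in PC3-shESS2 cells (log2 ratio 1.31, spot SD 0.076). The call was kept in all 8 alternative settings, where the ratio ran from 1.21 to 1.41. Keeping outliers, other filters on dim probes and plain dim signals left the ratio of FST unchanged and could not test the call. The DU145 ratio was 0.23 (spot SD 0.10), and the difference between the lines, 1.08, was not tested.

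TGFBI encodes a secreted matrix protein that was first found as a transcript raised by TGF-β. Its level was 4.56 in PC3-shC, 3.25 in PC3-shESS2, 20.4 in DU145-shC and 14.2 in DU145-shESS2. The shESS2 array was again the lower one in each line. It was 1.40-fold lower in PC3-shESS2 and 1.44-fold lower in DU145-shESS2 cells (log2 ratios -0.49 and -0.53), and the ratios in the 2 lines differed by 0.04.

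Of the 9 genes compared in both lines, 4 had ratios below 0 in both (TGFB2, TGFB3, SMAD3 and TGFBI), where 32.3% of 27015 probes did. FST alone was above 0 in both, as 24.5% of probes were, and the other 4 (TGFB1, TGFBR1, TGFBR2 and SMAD7) had opposite signs, as 43.2% did. No gene was past 2-fold in both lines (0 of 9), and 0.433% of probes were past it in the same direction.

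**Figure D2:**
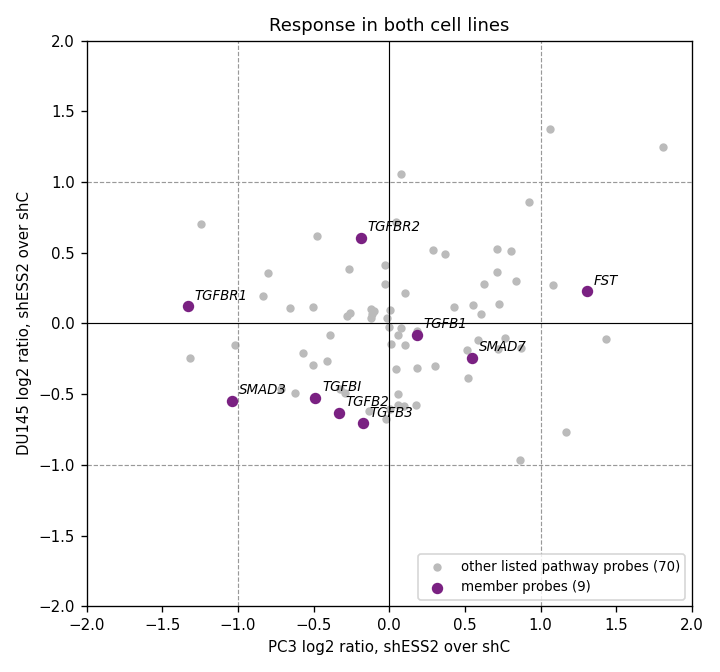
log2 ratio of shESS2 over shC in PC3 (horizontal) against DU145 (vertical) for the 9 genes compared in both lines (labelled) and 70 probes of other listed pathway genes (grey), with dashed lines at 2-fold. TGFB2, TGFB3, SMAD3 and TGFBI lie in the lower left, and 0 of the 9 genes lies past 2-fold in both lines.

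The ESS2 shRNA was then compared with the control over all 4 arrays in a limma fit with cell line as a block. This fit takes the lines as replicates of the knockdown. Its 1 residual degree of freedom is the difference in ratio between the lines, so a gene whose ratios differ has a larger SE. After Benjamini-Hochberg adjustment, 0 of 30830 probes passed 0.05 (0%), and 1725 (5.6%) had an unadjusted p under 0.05. None of the 10 genes passed it either (0 of 10), and 1, SMAD3, had an unadjusted p under 0.05. Its limma estimate was -0.79 on the log2 scale (SE 0.23, unadjusted p = 0.032, adjusted p = 0.788). TGFBI followed at -0.51 (SE 0.19, limma adjusted p = 0.788) and TGFB2 at -0.48 (SE 0.20, limma adjusted p = 0.788). The limma estimate of FST was 0.77 with an SE of 0.35, and that of TGFB1 was 0.05 with an SE of 0.20.

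The same limma fit compared PC3 with DU145 cells, and here 46.7% of all probes passed (22.9% higher and 23.7% lower in PC3), and 56.9% had an unadjusted p under 0.05. Of the 9 genes well above background on all 4 arrays, 5 passed after adjustment: FST, TGFB2 and TGFB3 were higher in PC3, and TGFBI and SMAD7 were lower. INHBA entered the fit through the PC3 arrays alone, so its limma adjusted p (0.00297), which rests on DU145 values not well above background, is not counted as a call. It was at least 3387-fold higher in PC3, a bound set by the lowest signal well above background on each DU145 array that holds for the processed signal only. With normexp the log2 difference of INHBA was 8.70, in place of the 12.48 measured without the bound. FST was 267-fold higher in PC3 (log2 difference 8.06, SE 0.35, limma adjusted p = 0.00360), with log2 differences of 7.52 between the shC arrays and 8.60 between the shESS2 arrays, and of 6.20 in the fit with normexp.

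TGFB2 was 19.7-fold higher in PC3 (log2 difference 4.30, SE 0.20, limma adjusted p = 0.00377), and TGFB3 15.8-fold higher (3.98, SE 0.23, limma adjusted p = 0.00464). With normexp these log2 differences were 3.23 and 2.54. TGFBI was 4.42-fold lower in PC3 (log2 difference -2.14, SE 0.19, limma adjusted p = 0.00750). The calls of FST, TGFB2, TGFB3 and TGFBI were lost only when no probe was filtered for dim signal, where 0 of 58196 probes passed and their adjusted p-values were 0.058, with 19609 probes at an unadjusted p under 0.05. INHBA could not be tested when probes had to be well above background on all 4 arrays. SMAD7 was 2.33-fold lower in PC3 (log2 difference -1.22, SE 0.28, limma adjusted p = 0.041), a call lost with median scaling (limma adjusted p = 0.063), quantile normalization (limma adjusted p = 0.0501) and no filter (limma adjusted p = 0.148).

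TGFB1 had a difference of -0.74 (SE 0.20, limma adjusted p = 0.056) and SMAD3 of -0.77 (SE 0.23, limma adjusted p = 0.068); each passed in other settings, TGFB1 in 5 of 9 fits and SMAD3 in 4 of 9. Over these fits the difference ran from -0.35 with median scaling to -1.15 with the authors' values for TGFB1, and from -0.38 to -1.18 in the same settings for SMAD3. TGFBR2 had a difference of 0.52 (SE 0.28, limma adjusted p = 0.211), which was 0.07 with quantile normalization and with normexp and 0.91 with median scaling. TGFBR1 had one of -0.21 (SE 0.43, limma adjusted p = 0.717), which turned to 0.18 with median scaling and was -0.62 with the authors' values. On the 75th percentile scale its order differed by shRNA, as the PC3 minus DU145 difference was 0.52 between the shC arrays and -0.93 between the shESS2 arrays.

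The probes whose levels followed TGFB1 most closely over the 4 arrays, among 75 candidate pathway probes well above background on all of them, were 1 probe each of LTBP4, LTBP2 and TGIF1. LTBP4 and LTBP2 are members of the latent TGF-β binding protein family, and TGIF1 is a repressor that binds SMAD2 and SMAD3. The root mean square difference of their centred log2 levels from those of TGFB1 was 0.20, 0.24 and 0.25. Beside the ratios of TGFB1 (0.18 in PC3 and -0.08 in DU145), theirs were 0.005 and 0.09 for LTBP4, -0.39 and -0.08 for LTBP2, and -0.26 and 0.07 for TGIF1. LTBP4 and TGIF1 have another probe each that was not among the 3, with ratios of -0.41 and -0.26 for LTBP4 and of -0.27 and 0.39 for TGIF1.

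A further 72 pathway genes were listed by role, with 93 probes. In PC3, 10 of their 78 compared probes were past 2-fold (6 higher and 4 lower, 12.8%), and in DU145 3 of 70 (all 3 higher, 4.29%), beside 7.67% and 5.06% of all probes. Their median ratio was 0.06 in PC3 and 0.01 in DU145. In PC3, 7 of these probes were past 2-fold with median scaling and only 2 with normexp.

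Of the other ligands, the Nodal antagonist LEFTY1 was not well above background in PC3-shC and stood at least 2.25-fold higher with the ESS2 shRNA, whereas its DU145 ratio was -0.77. INHBE, an inhibin β subunit gene, was at least 2.84-fold lower in PC3-shESS2, where it was not well above background. The other receptors and co-receptors had 0 of 8 compared probes past 2-fold in PC3 and 0 of 7 in DU145, beside 7.67% and 5.06% of all probes. Their median ratio was 0.56 in PC3 and 0.06 in DU145, beside -0.03 over all probes in each line.

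Among the genes of latency and activation, ITGB8, the integrin β8 subunit that takes part in releasing TGF-β from its latent complex, rose past 2-fold with the ESS2 shRNA in both lines, 3.51-fold in PC3 and at least 2.37-fold in DU145. Its levels were 1.60 in PC3-shC, 5.62 in PC3-shESS2, 0.0211 in DU145-shC and 0.0968 in DU145-shESS2. ITGB6, the β6 subunit with the same activity, was 2.06-fold higher in PC3-shESS2 cells (log2 ratio 1.04). Its signals were dim, 13.1 in PC3-shC and 29.8 in PC3-shESS2, where the lowest well above background were 8.94 and 9.02. It was not compared in DU145. LTBP1, which binds the latent complex to the matrix, was 2.70-fold higher in PC3-shESS2 cells at a dim probe (signals of 21 and 62.6). It was 1.79-fold higher at the other probe, with DU145 ratios of -0.11 and 0.30.

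The extracellular and receptor-level inhibitors had 0 of 10 compared probes past 2-fold in either line, beside 7.67% of all probes in PC3 and 5.06% in DU145. Of the other SMADs and cofactors, SMAD6, an inhibitory SMAD like SMAD7, was 2.50-fold lower in PC3-shESS2 cells, while its DU145 ratio was -0.24. SMAD2 had ratios of -0.80 in PC3 and 0.35 in DU145. SMAD4, the common partner, had ratios of 0.11 and -0.66 at its 2 probes in PC3, so the probes disagreed in sign, and 0.21 and 0.11 in DU145.

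Of the target genes, 4 of 28 compared probes were past 2-fold in PC3 (14.3%) and 2 of 24 in DU145 (8.33%), beside 7.67% and 5.06% of all probes. BHLHE40, a transcriptional repressor, was 2.09-fold higher in PC3-shESS2 and 2.59-fold higher in DU145-shESS2 cells. SNAI2, a repressor active in epithelial-mesenchymal transition, was 2.12-fold higher in PC3-shESS2, with a DU145 ratio of 0.27. The PC3 ratios of BHLHE40 and SNAI2, 1.06 and 1.08, lay just past the threshold, and median scaling shifted all PC3 probes by -0.10. The AP-1 subunit JUNB was 2.08-fold higher in DU145-shESS2, with a PC3 ratio of 0.08. ACTA2, smooth muscle actin, was 2.37-fold lower in PC3-shESS2, whereas its DU145 ratio was 0.70. The metalloproteinase ADAM19 was 2.03-fold lower there at 1 probe and 1.82-fold lower at the other, with a DU145 ratio of -0.15 at the first. MMP9, a gelatinase, had levels of 3.16, 5.21, 0.327 and 0.289 in the same order of arrays, with ratios of 0.72 and -0.18.

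Markers of other cell types were measured on the same arrays. The summed level of the 2 endothelial genes was 2.07 in PC3-shC and 0.261 in PC3-shESS2, with PECAM1 22.7-fold lower at its strongest probe and CDH5 at a ratio of 0.03, and it was 0.166 and 0.196 in DU145. The summed level of the 3 fibroblast genes was 1.05, 0.855, 0.418 and 0.365 in the same order of arrays, with COL1A2 not well above background on any of them, LUM 4.47-fold higher in PC3-shESS2 and COL1A1 1.48-fold lower there. The 3 leukocyte genes summed to between 0.329 and 0.438, with CD3E not well above background on any array. The 3 epithelial genes summed to 486 and 500.5 in PC3 and to 139 and 128 in DU145, where EPCAM was 6.11-fold lower in shESS2 cells. The 3 KRT8 probes had DU145 ratios of 0.28, -0.69 and 0.68 and the 2 KRT18 probes of -0.08 and -0.03. The RNA came from cultured cell lines, so these signals do not show that endothelial, fibroblast or leukocyte cells were present. The part of the markers in the ratios above was not tested. In bulk RNA, fewer cells of a line expressing a gene and less RNA per cell cannot be told apart.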

How the data were processed

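RNA (0.1 µg per array per the labels) was measured on Agilent Cy3 arrays. The authors deposited scanner output holding the spot intensity after local background subtraction and spatial detrending by Agilent Feature Extraction (12.1.0.3 for PC3, 12.0.3.1 for DU145 per the file headers), with no scaling between arrays. A deposited table of the authors' scaled intensity, each column 1 constant times that signal, served as an alternative. A RefSeq table (GRCh38.p14) named 35080 of 58201 probes by accession. The array design is annotated on hg19, so gene coordinates are not printed from that table.

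The log2 intensity minus each array's 75th percentile was used (signals of 263, 290, 212 and 218 for PC3-shC, PC3-shESS2, DU145-shC and DU145-shESS2). Control and outlier spots were left out, and spots of 1 probe averaged. A ratio was given where at least 1 of the 2 arrays was well above background, and a dim side was raised to the lowest signal well above background (8.15 to 9.02). limma was fitted to probes passing that flag on 2 or more arrays, with p-values adjusted by Benjamini-Hochberg at 0.05. The labels do not say whether the arrays came from separate cultures. With both factors in the fit, the 1 residual degree of freedom is the difference between the lines in the shESS2 over shC ratio. The SEs and p-values of both limma comparisons rest on that difference, moderated over all probes, and measure no spread between replicate arrays. The number of arrays limits their precision. The spot SD, that of a log2 ratio of single spots, was the median over the 50 probes nearest in signal among those spotted 10 times, or INHBA's own.

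The 10 genes, the pathway lists and the markers were chosen with earlier results of these data known. ESS2, GAPDH, ACTB, MMP9, SMAD2, SMAD4, pathway genes past 2-fold and the 3 probes most like TGFB1 are named by rule beside the 10 genes; single markers were named after their values were seen. Alternatives were median scaling, quantile normalization, normexp (offset 50, median spot signals) followed by quantile normalization, the authors' values, outliers kept, other filters on dim probes, plain dim signals and a fit without the other factor. The scripts were tested on simulated data. The software was R 4.3.3 with limma 3.58.1, and Python 3.11.15 with pandas 2.3.3, numpy 2.4.6 and matplotlib 3.10.9.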

Additional observations from a re-analysis of the deposited data

Results flagged for a closer look

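TGFBR2 and SMAD7 had ratios of opposite sign in the cell lines, each more than 2 SDs between spots away from 0 on the 75th percentile scale. The log2 ratio of TGFBR2 was -0.19 in PC3 and 0.60 in DU145. That of SMAD7 was 0.55 in PC3 and -0.24 in DU145. The signs held in the 8 alternatives, of which outliers kept, other filters on dim probes and plain dim signals left the ratios unchanged. However, the PC3 ratio of TGFBR2 was -0.085 with quantile normalization, -0.097 with the authors' values and -0.12 with normexp. The DU145 ratio of SMAD7 was -0.16 with normexp. All of these were within 2 of the SDs of the 75th percentile scale. The difference between the lines was not tested, as each condition has 1 array, and 43.2% of all probes compared in both lines had opposite signs.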

How the results depend on the processing

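No ratio of shESS2 over shC of the 10 genes changed sign in the 8 alternatives for each ratio. Keeping outliers, other filters on dim probes and plain dim signals left each of these ratios unchanged. Only median scaling, quantile normalization, normexp and the authors' values could therefore have changed a sign. Scaling to the median moved the median ratio of the 10 genes in PC3 to -0.28, with a shift of all probes of -0.10, and the authors' scaled values moved it to -0.090. Among all probes past 2-fold in PC3, 54.0% were higher in shESS2 cells, 42.7% with median scaling and 63.4% with the authors' values. For the limma difference between lines, all probes shifted by 0.39 with median scaling, -0.41 with the authors' values, 0.11 with quantile normalization and -0.12 with normexp, and the difference of TGFBR1, not called, turned from -0.21 to 0.18 with median scaling. Normexp left 1 of the 10 genes (FST) and 2 other pathway probes past 2-fold in PC3, and gave a median ratio of -0.16 in DU145; it drew the DU145 ratios of TGFB2 and TGFB3 to -0.29 and -0.19, the log2 differences between lines of INHBA, FST, TGFB2 and TGFB3 to 8.70, 6.20, 3.23 and 2.54, and lowered the count of all probes past 2-fold from 2311 to 700 in PC3 and from 1544 to 359 in DU145. Without a filter on dim probes, 6 other pathway probes were past 2-fold in DU145, and 0 of the 10 genes passed in the limma comparison of lines; the cause was not tested. The other limma settings gave 5 to 8, a count that includes INHBA wherever it was fitted. The limma knockdown effect gave 0 of the 10 genes in every setting, with 0 to 2 at an unadjusted p under 0.05. Without a block for cell line, 51 probes had an unadjusted p under 0.05 in place of 1725. The only pairing is that by cell line, which the limma knockdown fit holds as its block; the labels carry no replicate numbers. Leaving out an array leaves that fit no residual degrees of freedom.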
